A study of Homo sapiens with 12 samples.

Results

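The genes described here are 50 human genes whose products copy DNA or make its building blocks, and they were picked by symbol from the deposited table of raw counts. That table lists 58735 genes, and 29789 of them were counted in some library. All 50 genes passed the filter on low counts in each comparison. The list was drawn up with earlier results of these data known, so it is described by counts and medians and is given no test of its own.

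The counts come from TIGK cells, a gingival keratinocyte line immortalized with hTERT, the catalytic subunit of telomerase. All 12 libraries came from cells kept at 48 mM glucose in a medium made without L-arginine (Arg), to which 500 μM Arg or nothing was added. The 4 groups are Control 24 h, Arg 24 h, Control 48 h, and Arg 48 h, with 3 libraries each (replicates A, B, and C). The untreated control is therefore a culture deprived of the amino acid, not one in a complete medium, and 1 line stands for all keratinocytes. The labels do not say whether replicates came from separate cultures, so p-values measure the spread between these libraries, which may be technical. In counts from whole cultures, fewer cells that copy DNA and less RNA of a gene in each cell cannot be told apart.

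DNA replication starts at origins. In G1 the origin recognition complex (the ORC genes), CDC6, and CDT1 load the ring-shaped helicase made of MCM2 to MCM7, and geminin (GMNN) blocks CDT1 once S phase has begun. The kinase of CDC7 and DBF4, together with MCM10, then helps CDC45 and the 4 GINS proteins to turn the loaded rings into active helicases. DNA polymerase alpha and primase lay down primers, and polymerases epsilon and delta extend the leading and the lagging strand. The clamp PCNA, its loader RFC, and the single-strand binding protein RPA assist them, and FEN1 and LIG1 process and join the Okazaki fragments. Ribonucleotide reductase (RRM1 and RRM2), thymidylate synthase (TYMS), thymidine kinase (TK1), and dUTPase (DUT) supply deoxynucleotides and keep uracil out of DNA. UHRF1 and the CAF-1 subunits CHAF1A and CHAF1B restore DNA methylation and nucleosomes behind the fork. In dividing cells, many of these genes are switched on at the border of G1 and S phase by E2F transcription factors.

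The stretches before the start sites of 3 of these genes are shown as examples. Each gene passed the test over time in at least 1 medium, and each stretch holds letters that E2F factors are known to bind. MCM3, LIG1, ORC3, POLE, and RFC3 met both conditions as well and are not shown. The sequences are the 250 bases before the first start site that RefSeq lists (GRCh38.p14), read 5′ to 3′ on the strand of the gene. MCM6 lies on the minus strand (chr2:135876444-135876693), as do GINS2 (chr16:85688955-85689204) and PCNA (chr20:5126623-5126872). The GINS2 stretch lies inside that gene as annotated in the deposited counts (85676198 to 85690073). Capitals mark TTTCCCGC, TTTCGCGC, TTTGCCGC, or TTTGGCGC on either strand.
MCM6: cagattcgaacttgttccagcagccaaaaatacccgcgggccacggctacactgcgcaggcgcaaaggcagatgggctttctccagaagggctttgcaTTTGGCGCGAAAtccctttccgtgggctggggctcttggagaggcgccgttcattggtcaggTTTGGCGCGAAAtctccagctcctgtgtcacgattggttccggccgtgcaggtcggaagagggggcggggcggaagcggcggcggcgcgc
GINS2: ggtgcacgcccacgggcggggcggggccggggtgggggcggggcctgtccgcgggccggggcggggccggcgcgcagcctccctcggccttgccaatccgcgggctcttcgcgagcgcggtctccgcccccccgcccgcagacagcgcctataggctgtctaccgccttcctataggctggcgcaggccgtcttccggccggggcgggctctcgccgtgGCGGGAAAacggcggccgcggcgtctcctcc
PCNA: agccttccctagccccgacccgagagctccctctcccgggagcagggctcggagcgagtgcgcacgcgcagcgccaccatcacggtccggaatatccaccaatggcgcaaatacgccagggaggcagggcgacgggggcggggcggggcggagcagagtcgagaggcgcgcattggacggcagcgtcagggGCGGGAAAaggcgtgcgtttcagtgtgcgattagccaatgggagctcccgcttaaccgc
MCM6 held 4 matches, which fall on 2 places because at each place both strands match and overlap, and GINS2 and PCNA held 1 match each. Of the 44 genes with a RefSeq entry, 14 (31.8%) held such a match, against 2.79% of the 27305 promoters of that length in the table. The letters CCAAT, on either strand, stood in 54.5% of the 44 promoters and in 33% of all promoters, and TTTGAA or TTCGAA stood in 4.55% and 14.6%. MCM4, MCM5, GINS4, POLD3, RPA2, and RPA3 had no entry. A match describes the letters in this window and is not evidence of binding.

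The libraries held between 16542243 and 19040964 counts. A single gene of the list had between 199 counts (POLA2, in its lowest library) and 18351 counts (MCM4, in its highest). Together the 50 genes took between 0.624% and 0.714% of a library's counts. All 10 keratinocyte markers were present in each library, with KRT5 between 24125 and 31683 CPM (counts relative to the scaled size of the library), and the melanocyte gene TYR was at 0 in all of them. Control replicate B at 48 h stood apart from its group. Mitochondrially encoded genes took 1.55% of its counts, against 0.906% at most in the other 2 libraries of the group, and it lay below both of them in 30 of the 50 genes. Some genes of the list overlap a neighbour on the genome, and the strand setting of the counting is not stated, so their values are uncertain. The neighbour had 1370% of the gene's own counts for PRIM1 (NACA, same strand), 161% for RFC4 (EIF4A2), 156% for RFC5 (WSB2), 98.8% for CHAF1A (UBXN6), 83.5% for CHAF1B (MORC3, same strand), and 74% for GINS2 (GSE1). For FEN1 (TMEM258), TYMS (ENOSF1), and DBF4 (SLC25A40) it had between 32% and 43.1%.

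Subunits of the same complex were not present at equal mRNA levels. Levels between genes are given as CPM per kilobase of exons, averaged over the 12 libraries. The exonic length can far exceed the length of the Ensembl canonical transcript (7338 against 3458 bases for MCM5, 4309 against 1615 for ORC6). The order of the subunits and the ratios between them depend on this choice of length, which was not varied. TK1 (202) and PCNA (189.7) stood highest, and POLA2 (2.23), the second subunit of polymerase alpha, stood lowest. Among the 6 subunits of the MCM ring, MCM4 (127) and MCM7 (111) led, followed by MCM2 (66.0), MCM6 (49.2), MCM3 (47.0), and MCM5 (35.5). MCM4 was the highest of the 6 in all 12 libraries, and the ratio of the highest to the lowest subunit lay between 3.24 and 3.99. MCM6 and MCM3 are neighbours in this order and changed places between libraries. The spread was wider in the GINS complex, where GINS2 (39.0) exceeded GINS4 (5.46) by between 5.79 and 9.26 times. In polymerase delta the accessory subunit POLD2 (63.6) exceeded the catalytic subunit POLD1 (15.9) and POLD3 (13.0) in each library. RPA2 (71.6) led RPA1 (53.4) and RPA3 (16.7), and RRM1 (74.3) led RRM2 (35.7), again in each library. The 5 RFC subunits lay closer together, from RFC2 (35.2) to RFC5 (17.6), as did the 5 ORC subunits, from ORC3 (18.5) to ORC2 (6.61).

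**Figure D1:**
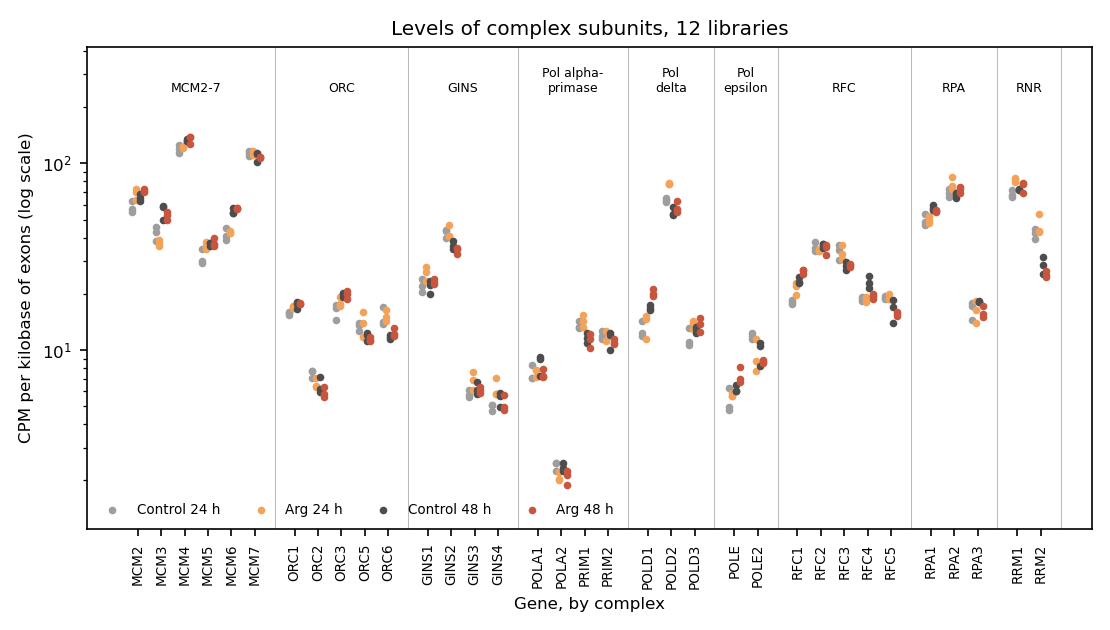
CPM per kilobase of exons on a log axis for the subunits of 9 complexes, with each point a library coloured by its group. GINS2 stands at 39.0 and GINS4 at 5.46 on average, and MCM4 lies above the other subunits of its ring in all 12 libraries.

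The first question was whether Arg treatment changed these genes at 24 h. After 24 h with Arg, 38 of the 50 genes were higher and 12 were lower than in the untreated control, with a median log2 fold change of 0.061 against 0.003 over all 14279 genes tested. POLD2, which helps to hold polymerase delta on the clamp, was the only gene of the list to pass the threshold (edgeR, adjusted p under 0.05). This rule called 2.79% of all genes tested as higher and 3.84% as lower, and 1 gene of 50 is near that background. Some other settings gave more, with 5 genes in a joint model of all 12 libraries (3.09% of all genes) and 3 in DESeq2 (3.46%). A correction for transcript length and GC content, chosen after seeing the data, gave 4 (4.28%), and library size only gave 2 (2.87%). The count stayed at 1 with the scaling of DESeq2 in edgeR, without a filter, with a stricter filter, and with a replicate block. In these settings between 2.09% and 2.95% of all genes were called higher. At an unadjusted p under 0.05, 13 of the 50 were higher and 1 was lower, where 10.8% and 11.9% of all genes were. The 13 became 6 without control replicate A, control replicate C, or Arg replicate B and 7 without Arg replicate C, where between 7.68% and 8.03% of all genes were higher. The log2 fold changes lay between −0.35 and 0.34. The summed level of the 50 genes lay between 6487 and 6799 CPM in the control and between 6981 and 7050 CPM with Arg.

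POLD2 had 234, 241, and 230.0 CPM in the control libraries and 289.7, 285, and 285 CPM in the Arg libraries. The groups did not overlap, and the Arg libraries lay within a few CPM of one another. The log2 fold change of 0.29 had a standard error of 0.07 and passed the threshold (adjusted p = 0.0237 in edgeR). With single libraries left out, POLD2 passed in 2 of 6 fits (without control replicate B and without Arg replicate A), with an edgeR adjusted p between 0.0166 and 0.120. Without control replicate B, MCM2, MCM5, and RRM1 passed as well, and without Arg replicate A, CDT1, MCM2, and LIG1 did and POLE2 was called lower. No gene of the list passed without control replicate A or C or without Arg replicate B or C. The other subunits of polymerase delta, POLD3 and POLD1, had log2 fold changes of 0.25 and 0.10, and neither passed.

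RRM1, the large subunit of ribonucleotide reductase, had 276, 300.1, and 284 CPM in the control and 348, 329.7, and 339.6 CPM with Arg. All Arg libraries lay above all control libraries, but the log2 fold change of 0.24 (standard error 0.07) missed the threshold with an adjusted p of 0.0547 in edgeR's test. RFC1, the large subunit of the clamp loader, had 118, 124, and 122 CPM in the control and 148, 153, and 133 CPM with Arg (log2 fold change 0.26, edgeR adjusted p = 0.0672). GINS4, a subunit of the active helicase, showed the greatest positive log2 fold change of the list at 0.34, with 25.9, 27.6, and 27.7 CPM in the control and 31.9, 31.9, and 38.7 CPM with Arg (edgeR adjusted p = 0.0673). In CDT1, the licensing factor, the control libraries had 161, 163, and 145 CPM and the Arg libraries 169, 201, and 187 CPM (log2 fold change 0.25, edgeR adjusted p = 0.0820). The Arg libraries of each gene lay above its control libraries, yet none of them passed. RRM1 and RFC1 did pass with DESeq2, with adjusted p-values of 0.0199 and 0.0399.

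On the lower side, POLE2, the second subunit of polymerase epsilon, had 33.9, 35.2, and 36.3 CPM in the control and 33.8, 22.7, and 25.8 CPM with Arg. Arg replicate A lay just below the control libraries and the other 2 lay well below them. The log2 fold change was −0.35 (standard error 0.13, edgeR adjusted p = 0.102). MCM3 (−0.17), ORC2 (−0.18), and CDC6 (−0.13), which all act in origin licensing, were the next lower genes by p, with adjusted p-values between 0.225 and 0.338 in edgeR's test. MCM3 had the opposite sign to MCM2 (0.24) and MCM5 (0.22), which share its ring. None of these genes passed, and the difference between them was not tested.

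By role, 7 of the 8 genes of origin firing and helicase activation were higher with Arg at 24 h (median log2 fold change 0.19). Of these, 4 (DBF4, GINS1, GINS3, and GINS4) had an unadjusted p under 0.05 in edgeR's test, where 10.8% of all genes were higher. None of the 4 passed the adjusted threshold, and the GINS1 libraries of the groups overlapped. The count for this role was not followed through the fits without single libraries, where the 13 of the list became as few as 6. For origin licensing, 11 of 14 were higher, with a median of 0.048. The polymerases and primase split into 6 higher and 3 lower genes, with values between −0.35 and 0.29. The clamp, clamp loader, and single-strand binding genes had a median of 0.011, and only RFC1 among the 9 had an unadjusted p under 0.05. In nucleotide supply, 4 of 5 were higher (median 0.15). LIG1 (0.26) was higher and FEN1 (−0.07) was lower, and the 3 genes of chromatin copying were all higher, between 0.06 and 0.20. Mitochondrially encoded genes took between 0.624% and 0.802% of the counts in the Arg libraries and between 1.20% and 1.30% in the control libraries at this time, and their part in these differences was not tested.

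**Figure D2:**
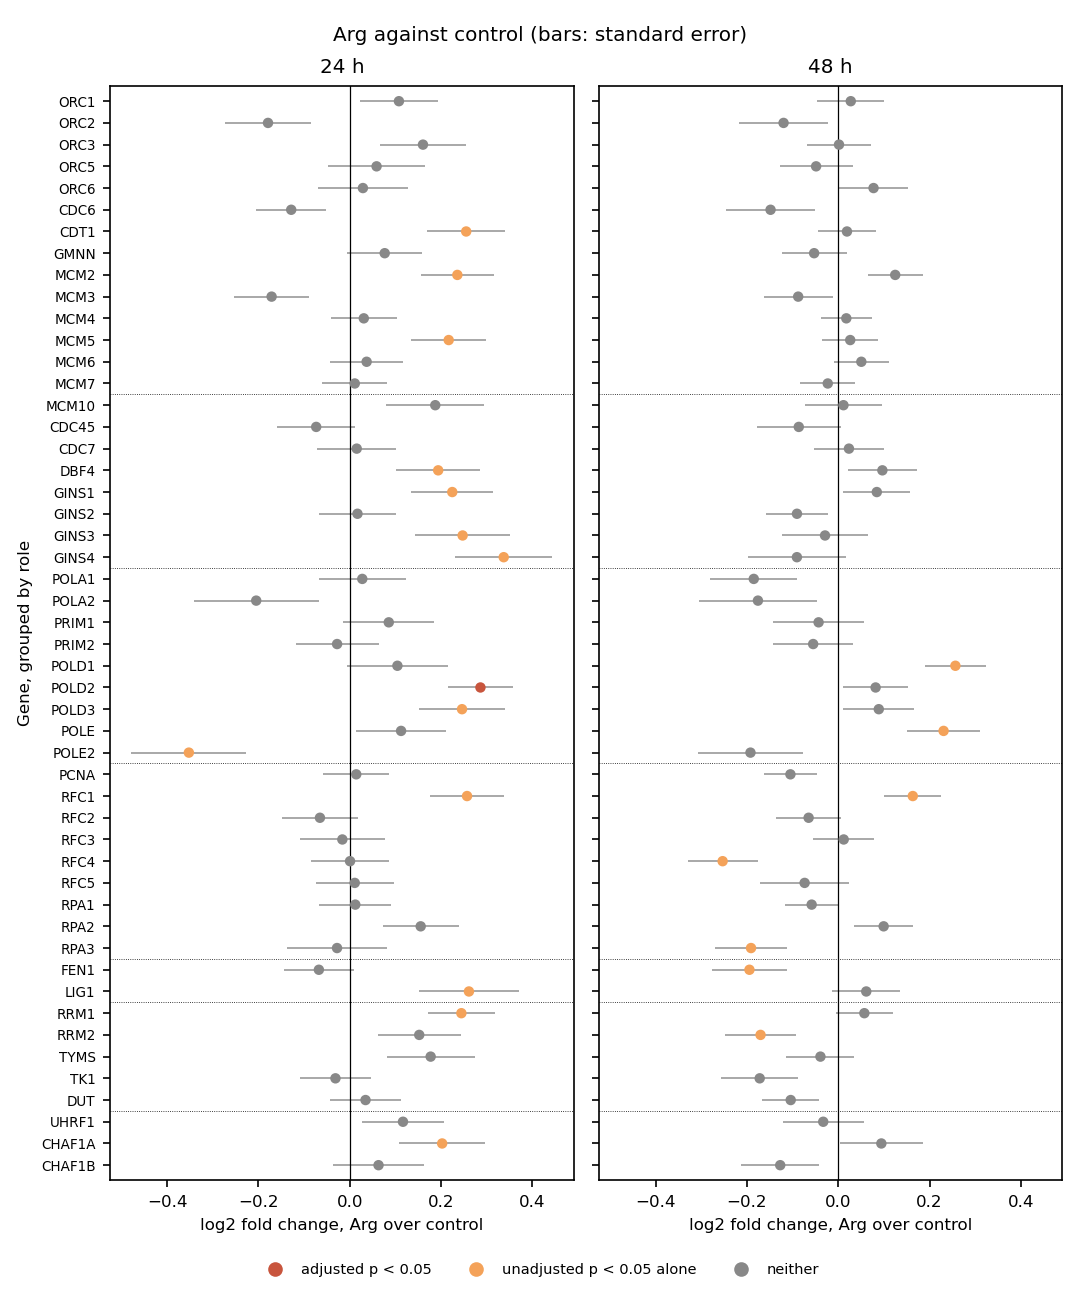
Log2 fold change of each gene with Arg treatment, with its standard error, at 24 h (left) and 48 h (right), with genes in the order of their role. At 24 h most points lie to the right of 0 and POLD2 alone passes the adjusted threshold, while at 48 h the points lie on both sides and none passes.

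The same comparison was made at 48 h. Here 22 of the 50 genes were higher and 28 were lower with Arg, with a median log2 fold change of −0.036 against 0.002 over all 14562 genes tested. No gene of the list passed the adjusted threshold in edgeR's test or in DESeq2, where edgeR called 0% of all genes as higher and 0.117% as lower. At an unadjusted p under 0.05, 3 of the 50 were higher and 4 were lower, where 5.94% and 7.49% of all genes were.

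The 3 higher genes were POLD1, POLE, and RFC1, and the first 2 of them encode the catalytic subunits of polymerases delta and epsilon. POLD1 had 80.7, 85.7, and 82.5 CPM in the control and 95.7, 98.0, and 104 CPM with Arg (log2 fold change 0.26, standard error 0.07, edgeR adjusted p = 0.168). POLE had 101, 108, and 99.8 CPM in the control and 115, 112, and 134 CPM with Arg (log2 fold change 0.23, edgeR adjusted p = 0.241). In both genes each Arg library lay above each control library, but the differences did not pass. RFC1 was higher at this time too, by 0.16 on the log2 scale. The 4 lower genes were RFC4 (−0.25), FEN1 (−0.19), RPA3 (−0.19), and RRM2 (−0.17), with adjusted p-values between 0.204 and 0.361 in edgeR's test. RFC4, a small clamp loader subunit, had 74.8, 64.7, and 68.4 CPM in the control and 58.1, 60.0, and 56.4 CPM with Arg. For RRM2, the small subunit of ribonucleotide reductase, the control values of 153, 136, and 168 CPM overlapped the Arg values of 131, 135, and 140.5 CPM.

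Calls at 48 h appeared only when control replicate B was left out. FEN1, the flap endonuclease, had 112 CPM in that library. Its partners A and C held 139 and 138 CPM, and the Arg libraries held between 111 and 115 CPM. Without control replicate B, 3 genes of the list were higher at an adjusted p under 0.05 (MCM2, POLD1, and POLE) and 7 were lower (CDC6, POLA1, POLE2, RFC4, FEN1, RRM2, and TK1). In that fit 7.76% of all genes tested were called higher and 8.17% lower. A reason to leave the library out is not given in the labels, so it was kept.

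Whether the change with Arg differed between the times was tested as an interaction in all 12 libraries. In 39 of the 50 genes the value at 48 h was below that at 24 h, with a median difference of −0.11 against −0.006 over all 15148 genes tested. None of the 50 passed the adjusted threshold, with edgeR or with DESeq2, and 0.0132% of all genes did in edgeR's test. At an unadjusted p under 0.05, 4 genes of the list had a lower value at 48 h (3.80% of all genes) and 0 had a higher one (3.06%). They were GINS4 (−0.43, standard error 0.15), RRM2 (−0.32, standard error 0.13), RFC4 (−0.25, standard error 0.11), and CDT1 (−0.23, standard error 0.11), with adjusted p-values between 0.606 and 0.708. In GINS4 the control mean went from 27.1 ± 1.02 to 30.1 ± 2.76 CPM (SD, n = 3) between the times while the Arg mean went from 34.2 ± 3.92 to 28.3 ± 2.89 CPM. On the positive side POLE2 (0.16), POLD1 (0.15), POLE (0.12), and MCM3 (0.08) had the smallest p, with adjusted p-values between 0.888 and 0.938.

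**Figure D3:**
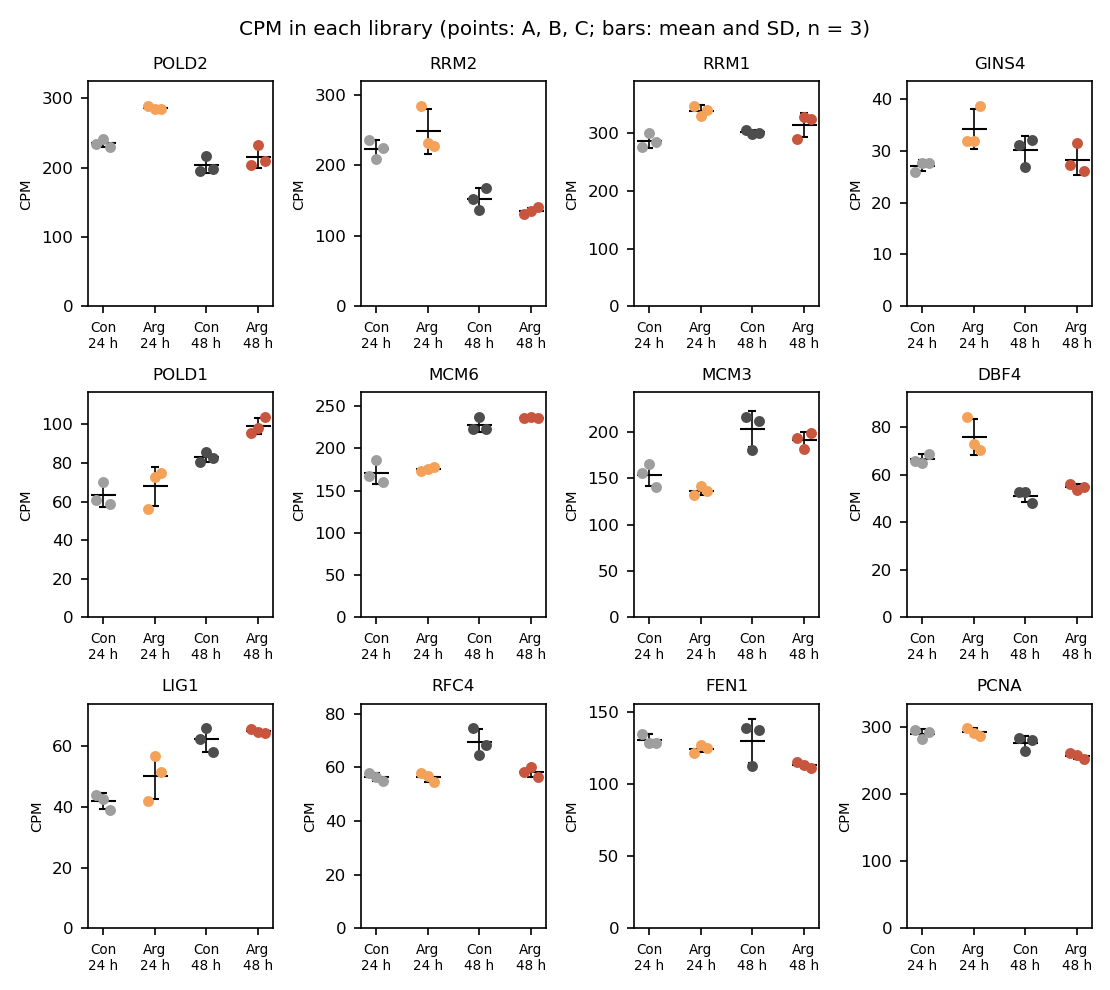
CPM of 12 genes in each of the 4 groups, with points for replicates A, B, and C and bars for the mean and SD (n = 3). In POLD2 the 3 libraries of Arg 24 h stand above all others, in RRM2 both 48 h groups stand below both 24 h groups, and in FEN1 control replicate B at 48 h (112 CPM) lies among the Arg libraries.

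The time in culture was compared within each medium. Without Arg, 9 of the 50 genes rose between 24 and 48 h and 3 fell (edgeR, adjusted p under 0.05), where 9.90% of all 14449 genes tested rose and 10% fell. The median log2 fold change of the 50 was 0.030. With Arg, 6 rose and 11 fell, where 14.3% and 14.0% of all 14398 genes tested did, and the median was −0.10. The rising count with Arg lay on either side of its share depending on the setting. The falling count lay above its share in each setting, but only just after the length and GC correction. There 8 rose and 8 fell, where 14.4% and 15.8% of all genes did. The list was given no test, so nothing more is read from these counts. Without control 24 h replicate A, 3 genes rose without Arg (MCM6, RFC1, and LIG1) and 1 fell (RRM2), where 2.85% and 2.74% of all genes did, and the same genes were called without replicate C (3.34% and 3.36%). Leaving out control 48 h replicate A or C gave 5 rising and 2 falling genes, where between 6.17% and 7.78% of all genes moved in either direction. Without control 24 h replicate B, 11 rose and 5 fell (10.7% and 11.6%). With Arg, 7 fell when any library of Arg 48 h was left out, where between 9.31% and 10.4% of all genes did. The fibroblast marker list moved with time as well. Its summed level lay between 49.5 and 73.3 CPM at 24 h and between 97.4 and 129 CPM at 48 h, with 3 of its 8 genes (COL1A1, DCN, and TWIST1) at 1 CPM or more in each library and COL1A2 at 0 in 10 libraries, and its part in these changes was not tested.

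Ribonucleotide reductase had the greatest fall of the list in both media, in its small subunit. RRM2 had 235, 209.6, and 225 CPM at 24 h without Arg and 153, 136, and 168 CPM at 48 h, which is −0.54 ± 0.09 (standard error) as a log2 fold change (edgeR adjusted p = 0.00293). With Arg it went from 285, 231, and 228 CPM to 131, 135, and 140.5 CPM, which is −0.87 ± 0.08 (edgeR adjusted p = 2.42e-07). The groups did not overlap in either medium. RRM2 had the smallest p of the 50 genes with Arg, while its partner RRM1 had log2 fold changes of 0.08 and −0.10 that did not pass.

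In the helicase, MCM6 and MCM3 rose in both media, and the other 4 subunits had smaller log2 fold changes. MCM6 went from 167, 186, and 161 CPM to 223, 238, and 223 CPM without Arg (log2 fold change 0.42, edgeR adjusted p = 0.00512). With Arg it went from 173, 175, and 178 CPM to 236, 237, and 236 CPM (0.43, edgeR adjusted p = 4.51e-05), so that both media arrived at nearly the same level. MCM3 went from 156, 166, and 141 CPM to 217, 181, and 212 CPM without Arg (0.41, edgeR adjusted p = 0.0102). In the Arg libraries it went from 132, 141, and 137 CPM to 193, 182, and 199 CPM (0.49, edgeR adjusted p = 2.67e-05). MCM5 rose without Arg (0.24) and had a value of 0.05 with Arg that did not pass. MCM7 had values of −0.05 and −0.08, neither of which passed. No MCM gene differed between the media at the adjusted threshold of the interaction.

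In polymerase delta, the catalytic subunit rose in both media and POLD2 fell with Arg. POLD1 rose in both media, by 0.40 without Arg (edgeR adjusted p = 0.0104) and by 0.55 with Arg (edgeR adjusted p = 0.000189). It had 60.9, 70.2, and 58.5 CPM at 24 h without Arg and 80.7, 85.7, and 82.5 CPM at 48 h. With Arg it had 56.1, 72.5, and 75.0 CPM and then 95.7, 98.0, and 104 CPM, where replicate A at 24 h lay apart from the other 2. POLD2 fell with Arg, from 289.7, 285, and 285 CPM to 204, 233, and 210.0 CPM (log2 fold change −0.41, edgeR adjusted p = 0.000158). Without Arg its log2 fold change was −0.20 (adjusted p = 0.0710), which did not pass. The ratio of POLD1 to POLD2, in CPM per kilobase, lay between 0.145 and 0.218 in the 6 libraries at 24 h and between 0.296 and 0.371 in the 6 libraries at 48 h. POLE, the catalytic subunit of polymerase epsilon, rose with Arg (93.6, 98.3, and 94.2 CPM to 115, 112, and 134 CPM, log2 fold change 0.35, edgeR adjusted p = 0.00241), and without Arg it had a log2 fold change of 0.23 that did not pass.

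DBF4, the activating subunit of the CDC7 kinase, fell in both media. It went from 65.8, 65.0, and 68.9 CPM to 52.9, 52.6, and 48.3 CPM without Arg (−0.37, edgeR adjusted p = 0.0104) and from 84.6, 73.1, and 70.4 CPM to 56.3, 53.6, and 54.8 CPM with Arg (−0.46, edgeR adjusted p = 0.000366). CDC7 itself lay between 65.0 and 72.8 CPM in all 12 libraries. GINS2 fell with Arg, from 153, 134, and 134 CPM to 114, 113, and 107 CPM (−0.32, edgeR adjusted p = 0.00298), and it had a value of −0.21 without Arg that did not pass.

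LIG1, the ligase that seals Okazaki fragments, had the greatest rise without Arg. It went from 44.0, 42.5, and 38.9 CPM to 62.3, 66.1, and 58.2 CPM (log2 fold change 0.58, standard error 0.09, edgeR adjusted p = 0.00261). With Arg it rose from 42.0, 56.6, and 51.6 CPM to 65.6, 64.8, and 64.5 CPM (0.38, edgeR adjusted p = 0.00524). Its partner in fragment processing, FEN1, had log2 fold changes of −0.003 and −0.13 that did not pass. In the clamp loader RFC1 rose in both media, from 118, 124, and 122 CPM to 154, 155, and 165 CPM without Arg (0.39, edgeR adjusted p = 0.00444) and by 0.30 with Arg (edgeR adjusted p = 0.00370). RFC4 rose without Arg, from 57.7, 56.4, and 54.8 CPM to 74.8, 64.7, and 68.4 CPM (0.31, edgeR adjusted p = 0.0242), and had a value of 0.05 with Arg. The remaining genes past the threshold without Arg were ORC3, RPA1, and MCM5, which rose by 0.30, 0.23, and 0.24, and ORC6, which fell by 0.34 on the log2 scale. With Arg they were ORC5, ORC6, PRIM1, PCNA, RFC3, RFC5, and DUT, which all fell, with log2 fold changes between −0.34 and −0.18. PCNA, the clamp, went from 299, 291, and 287 CPM to 261, 258, and 252 CPM with Arg. Its log2 fold change was −0.18 with Arg and −0.06 without Arg, where it did not pass. The call with Arg was lost with the replicate block, with library size only, without a filter, after the length and GC correction, and in 5 of 6 fits that left out a library. ORC5 and RFC3 also lost theirs with library size only, after the length and GC correction, and in 5 of 6 such fits. ORC5 lost its call with the replicate block too, and RFC3 without a filter and in the joint model of all libraries. PRIM1 lost its call after the length and GC correction and without Arg 48 h replicate A. Among the fits without single libraries, the calls of MCM5 and RPA1 without Arg held only without control 24 h replicate B.

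**Figure D4:**
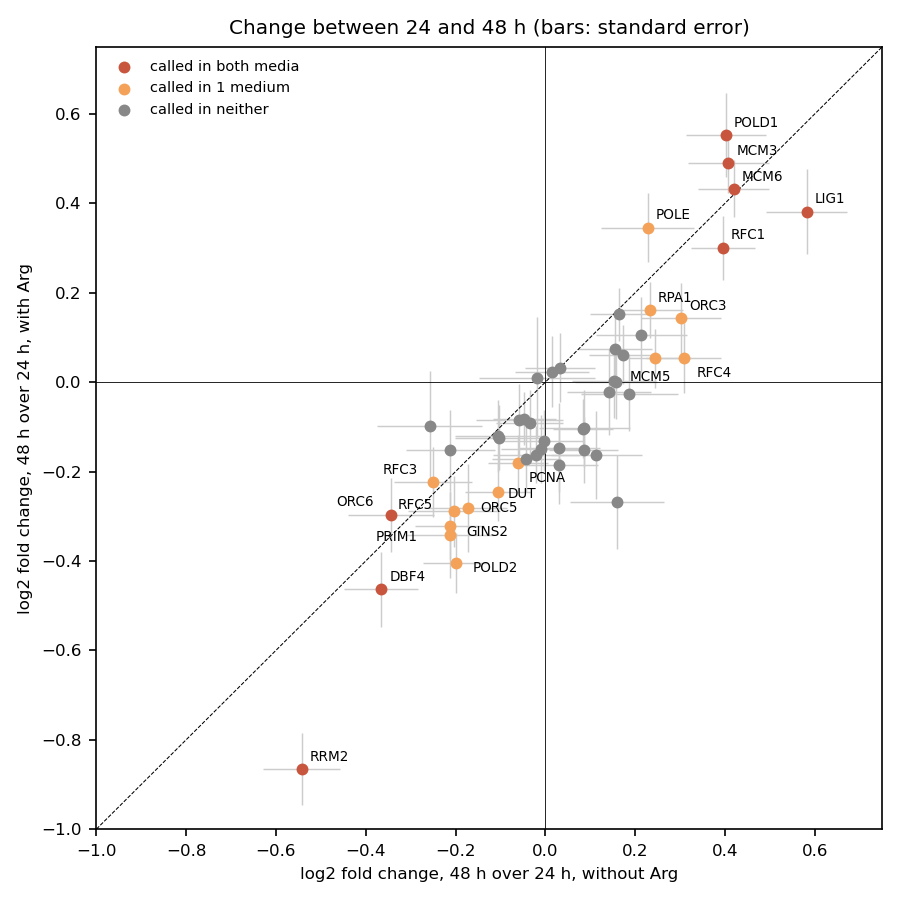
Log2 fold change between 24 and 48 h without Arg (x axis) and with Arg (y axis) for the 50 genes, with standard errors and a dashed line where both are equal. Named genes passed an adjusted p under 0.05 in at least 1 medium, and RRM2 lies lowest on both axes at −0.54 and −0.87.

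These comparisons share no library. Of the 12 genes called without Arg and the 17 called with Arg, 8 were called in both, which is 66.67% of the first and 47.06% of the second, and all 8 moved in the same direction. They were MCM3, MCM6, POLD1, RFC1, and LIG1, which rose, and ORC6, DBF4, and RRM2, which fell. The sign of the change was shared in 39 of the 50 genes, against 77.5% of the 14057 genes tested in both media, of which 14.6% were called in both. Over all genes, 2882 were called without Arg and 4072 with Arg, and 2047 were called in both. An overlap of this size is therefore not particular to the list. Of the 5 genes that rose in both media, 3 held E2F letters in the 250 bases before their start, and of the 3 that fell, 0 did. Of the 44 genes of the list with an entry, 31.8% held them. GINS2 and PCNA, shown above, and RFC3 held them and fell with Arg. POLE, which rose with Arg, and ORC3, which rose without Arg, held them too. These sets are small, and a difference between them was not tested.

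The ratios within complexes are given as ranges in CPM per kilobase, without a test. RRM2 to RRM1 lay between 0.526 and 0.670 at 24 h and between 0.322 and 0.438 at 48 h. MCM3 to MCM7 lay between 0.323 and 0.402 at 24 h and between 0.463 and 0.522 at 48 h. DBF4 to CDC7 lay between 0.707 and 0.901 at 24 h and between 0.564 and 0.654 at 48 h. In these 3 ratios the 6 libraries of one time did not overlap the 6 of the other. RRM2, MCM3, and DBF4 were already called over time in both media, so this follows in part from the choice of pairs. It is no separate support for a change with time, and the same holds for POLD1 to POLD2 above. No background of other gene pairs was set beside these ratios. POLE to POLE2 lay between 0.391 and 0.523 in Control 24 h and between 0.786 and 0.941 in Arg 48 h, and the other 2 groups lay between and overlapped. RFC1 to RFC4 was between 0.910 and 0.991 in Control 24 h, between 0.921 and 1.07 in Control 48 h, between 1.09 and 1.20 in Arg 24 h, and between 1.34 and 1.38 in Arg 48 h. With Arg it thus lay higher at both times. For Arg, RFC1 had an unadjusted p under 0.05 in edgeR's test at both times, RFC4 and POLE at 48 h, and POLE2 at 24 h. The separation in both ratios therefore follows in part from the choice of pairs and is no separate support for a change with Arg. RFC4 is also among the genes with uncertain counts.

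**Figure D5:**
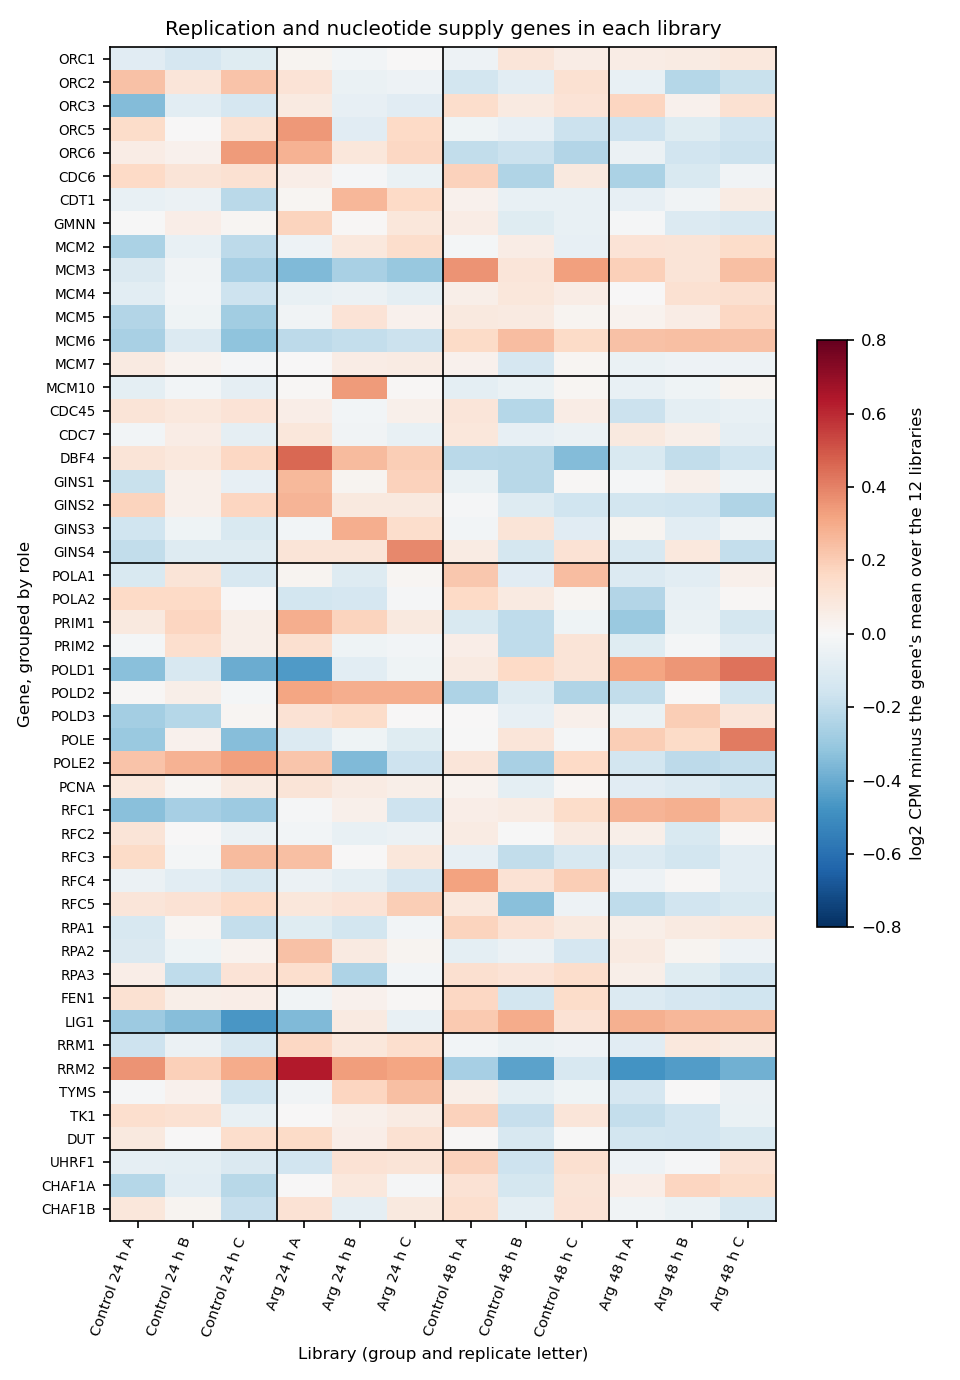
Log2 CPM of each gene minus its mean over the 12 libraries, with libraries in columns by group and genes in rows by role. RRM2 and DBF4 are red at 24 h and blue at 48 h, and MCM3, MCM6, and POLD1 show the reverse.

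Other genes of the pathway were taken from lists drawn up by function. Of 30 other replication genes, 4 rose with Arg at 24 h at an adjusted p under 0.05 and 0 fell, where 2.79% and 3.84% of all genes did, with a median log2 fold change near 0 (15 higher and 15 lower). They were the fork protein WDHD1 (0.39), the histone chaperones NASP (0.33) and ASF1B (0.35), and the helicase MCM8 (0.34). At 48 h none of the 30 passed, and 2 were higher and 2 were lower at an unadjusted p under 0.05, close to the shares of all genes (5.94% and 7.49%). Between 24 and 48 h, 3 of the 30 rose and 3 fell without Arg, which is the background share (9.90% and 10%), and 3 rose and 8 fell with Arg, where 14.3% and 14.0% of all genes did. POLE3, a small subunit of polymerase epsilon, fell in both media (−0.37 and −0.45).

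Of 20 other nucleotide supply genes, only DHODH, an enzyme of pyrimidine synthesis, passed with Arg at 24 h (0.43, edgeR adjusted p = 0.0312). Of all genes tested, 2.79% were called higher in that comparison. In this list the fall with time was common, with 8 of 20 genes falling without Arg and 13 of 20 with Arg, while 1 rose in each medium. The median log2 fold changes were −0.20 and −0.25. Among them were the purine synthesis gene ATIC (−0.54 and −0.50), CAD (−0.61 without Arg), which starts pyrimidine synthesis, and CTPS1 (−0.53 with Arg), which makes CTP. Of the 5 nucleotide supply genes among the 50, beside the same shares of all genes, RRM2 fell in both media and DUT with Arg, and 0 rose.

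Genes of mitosis are set beside them. Of the 54 G2/M genes in the Seurat package, 24 were higher with Arg at 24 h at an adjusted p under 0.05. The share over all genes tested was 2.79%, and 1 of the 50 replication genes passed. The median log2 fold change was 0.27 for the G2/M genes and 0.061 for the 50. At 48 h none of the 54 passed. At an unadjusted p under 0.05, 1 was higher and 3 were lower, where 5.94% and 7.49% of all genes were. Between 24 and 48 h with Arg, 34 of them fell and 1 rose, where 14.0% and 14.3% of all genes did. The median of the 54 was −0.25. Without Arg 10 rose and 10 fell, where 9.90% and 10% of all genes did, and the median of the 54 was 0.037. The interaction was negative in 53 of the 54 (median −0.25), with 27 at an unadjusted p under 0.05 and 0 at an adjusted one. Of all genes tested, 3.80% had a negative value at that unadjusted p, and 0.0132% passed the adjusted threshold in either direction. These values stand side by side, and the difference between the lists was not tested.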

How the data were processed

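RNA of TIGK cells was sequenced by the authors after poly(A) selection, with 3 libraries in each of 4 groups. Per the labels and methods, the authors filtered reads with fastp, used STAR for mapping (GRCh38/hg38), and obtained gene counts from featureCounts. They deposited raw counts for each gene, with coordinates and exonic lengths, and without normalization. Annotation release, strand setting, and tool versions are not given in the sources used here. Of the columns of counts, 0 were left out.

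Groups came from the labels. Each comparison of 2 groups was fitted over all genes in edgeR 4.0.16 (R 4.3.3) with TMM scaling, filterByExpr, and the quasi-likelihood F test without a block, with Benjamini–Hochberg adjustment over all genes tested. The study's methods name DESeq2, which was run as an alternative (version 1.42.0). The interaction used all 12 libraries. The standard error is the absolute log2 fold change divided by the square root of F. Levels are CPM with 1 TMM scaling over 12 libraries. An exact permutation test of 3 libraries against 3 has a smallest possible p of 0.1 and was not used. Ratios between subunits are given as ranges. The scripts were tested on simulated counts.

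The members and gene lists were chosen with earlier results of these data known. Named genes are up to 8 members with an adjusted p under 0.05 in a comparison, by smallest p, and otherwise up to 4 in each direction. In other lists, up to 4 genes past that threshold are named. Other members are given by role. G2/M genes came from Seurat 5.3.0. Marker lists of endothelial cells (4 genes, none at 1 CPM or more in every library, summed level at most 6.39 CPM), immune cells (4 genes, none, at most 3.57 CPM), and melanocytes (4 genes, none, at most 3.05 CPM) were checked beside those of keratinocytes and fibroblasts.

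Replicates differed by more than sampling noise (chi-square per degree of freedom between 3.66 and 23.9). The alternatives were DESeq2 itself or only its scaling, no TMM, no filter or a stricter one (10 counts or more in each library), a joint model of all 12 libraries, the replicate letter as a block, each library left out, and, chosen after seeing the data, a correction for transcript length and GC content (lowess span 0.3), for which all 50 members had a value.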

Additional observations from a re-analysis of the deposited data

How the results depend on the processing

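Of the summary values of the 5 comparisons, 134 moved by less than the spread between libraries (medians) or 1.5 times (counts) under the alternatives that left out no library, and 15 moved by more. Within that spread, the 48 h median of −0.036 became −0.0025 with the length and GC correction. The cause was not tested. With Arg at 24 h, the 1 gene called higher became 3 in DESeq2 (3.46% of all genes), 5 in a joint model of all 12 libraries (3.09%), 4 with the length and GC correction (4.28%, chosen after seeing the data), and 2 with library size only (2.87%), and the 0 called lower became 1 without a filter. The 1 gene lower at an unadjusted p under 0.05 became 2 with all 12 libraries, 4 with the length and GC correction, and 2 without a filter. At 48 h the 4 lower genes became 2 with all 12 libraries and 2 with the length and GC correction. Over time without Arg, the 3 genes that fell became 6 with all 12 libraries (12.4% of all genes) and 6 with the replicate block (14.4%), and the median of 0.030 became 0.090 with library size only, where the median of all genes was 0.072. With Arg, the median of −0.10 became −0.044 with library size only, where the median of all genes was 0.058, and −0.057 with the length and GC correction. Among named genes 10 tests passed only under an alternative and 0 reversed. With single libraries left out, the values at 24 h ranged from 0.027 to 0.091 for the median, 0 to 4 and 0 to 1 for genes called higher and lower, and 6 to 13 and 0 to 2 at an unadjusted p. At 48 h they ranged from −0.061 to −0.0037, 0 to 3 and 0 to 7, and 2 to 5 and 1 to 14, with the highest counts without control replicate B. Over time they ranged from −0.0089 to 0.054, 3 to 11 and 1 to 5 without Arg, and from −0.11 to −0.085, 6 to 7 and 7 to 13 with Arg. The interaction ranged from −0.15 to −0.079, with 2 to 8 genes at an unadjusted p and 0 to 0 at an adjusted one. The replicate letters did not pair the libraries (correlations of deviations between −0.061 and 0.135), and with the replicate block 1 gene was higher with Arg at 24 h, 0 passed at 48 h, 12 rose and 6 fell over time without Arg (13.6% and 14.4% of all genes), and 6 rose and 9 fell with Arg (13.4% and 12.9%). With 3 libraries a group, small differences could not be resolved.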
